A study of Rattus norvegicus with 12 samples.

Results

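The genes described here are the ligands, latent ligand carriers, receptors, Smads, inhibitors, secreted antagonists and Id target genes of transforming growth factor beta (TGF-beta) and bone morphogenetic protein (BMP) signalling in cultured rat cardiac fibroblasts depleted of Yap, of Wwtr1 or of both. Members were taken by symbol from a list of 50 genes, of which 48 were in the table of 12271 genes. The other 2, Ski and Skil, were not analysed here. All 48 passed the minimum mean of 10 normalized counts and were tested among 11871 genes. Primary cells came from ventricles of Sprague Dawley rats at postnatal day 2. They were transfected with universal negative control siRNA (a pair of control siRNAs), a pair of siRNAs against Yap, a pair against Wwtr1, or Yap plus Wwtr1 siRNA, each siRNA at 25 nM. The labels give collection 48 hours after transfection, whereas the study's methods count 48 hours from a change of medium made after transfection. Each of the 4 groups had 3 libraries, and those of the negative siRNA group are called controls. No group was left untransfected, so every value is relative to cells that also received siRNA. The siRNA label of the Yap plus Wwtr1 group (here, the double knockdown) names only the Wwtr1 siRNAs, its total siRNA dose was not given in the sources used here, and the series' design text says myocytes where the title and the labels say fibroblasts. The study's methods state that the replicates came from separate litters.

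Ligands of the TGF-beta branch are secreted in a latent complex that latent TGF-beta binding proteins tether to the extracellular matrix or that Lrrc32 holds at the cell surface. Once released, a ligand binds a pair of receptor types whose kinase activity marks receptor Smads, which join Smad4 and enter the nucleus. Smad2 and Smad3 carry TGF-beta and activin signals and Smad1, Smad5 and Smad9 carry BMP signals, with the Id genes among the best known BMP targets. In the heart, TGF-beta is known as a driver of the change of fibroblasts into contractile, matrix-producing myofibroblasts. Yap and Wwtr1 (also called Taz) are coactivators of the Hippo pathway that bind TEAD transcription factors and can also bind Smads.

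The siRNA targets were checked first. Yap1 was at 3042, 3776 and 2984 normalized counts in controls, 532, 576 and 625 after Yap siRNA, 3169, 3151 and 3184 after Wwtr1 siRNA, against 713, 739 and 1474 in the double knockdown. Wwtr1 was at 2364, 2565 and 2280.0 in controls, 2134, 2499.5 and 2374 after Yap siRNA, 524, 550.0 and 637 after Wwtr1 siRNA, against 818, 731 and 1056 in the double knockdown. Double knockdown replicate 3 thus kept more of both transcripts than replicates 1 and 2, and it also lay farthest from the other libraries of its group over all genes (median absolute log2 difference 0.200, against 0.103 to 0.173 for the other 11 libraries). Calls of the double knockdown against controls that change without it are given beside their values, and the others with the comparison they belong to. Library totals were 33.9 to 41.1 M reads, with double knockdown replicates 2 and 3 the deepest at 41.0 and 41.1 M. All 12 cardiac fibroblast markers were detected in every group, and their summed level ran from 3150377 to 4326104 normalized counts over the 12 libraries. Markers of other heart cells were present too. The sum over 10 cardiomyocyte markers was 36987 to 64377 normalized counts in controls, 45528 to 75176 after Yap siRNA, 40585 to 74142 after Wwtr1 siRNA, and 65375 to 83534 in the double knockdown, where 3 of the 10 rose. That over 10 macrophage markers was 13132 to 18949 in controls, 11288 to 17253 after Yap siRNA, 7767 to 11716 after Wwtr1 siRNA, and 4500 to 29185 in the double knockdown, where 1 fell. Of these 10, Cd68 was at 4758, 3255 and 2839 in controls, against 1598, 3238 and 8673 in the double knockdown. Csf1r was at 4392, 4047 and 3378 in controls, against 786, 1801 and 6407 there. For both, double knockdown replicate 3 was the highest of the 12 libraries. The part of these cell type markers in the results below was not tested. In bulk RNA, fewer cells of a type and less RNA per cell cannot be told apart.

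In the double knockdown, 30 of 48 genes differed from negative siRNA, 14 higher and 16 lower (limma on log2(normalized count + 1), Benjamini-Hochberg adjusted p under 0.05), against 32.8% of all genes tested (17.1% higher, 15.6% lower). The median log2 fold change was -0.01 over the 48 genes and 0.00 over all genes. Directions by role were as follows. Of 10 ligands, 6 fell and 2 rose (median log2 fold change -0.88), whereas of 9 receptors and co-receptors 4 rose and none fell (median 0.22). Of the 5 Ltbp-family and Lrrc32 genes, 2 rose and 2 fell. Of 8 Smads, 2 rose and 3 fell, of 5 inhibitors 1 rose and 3 fell, of 7 secreted modulators 2 rose and 2 fell, and of 4 Id genes 1 rose. Yap siRNA alone changed 4 of the 48 genes, 1 higher and 3 lower, against 4.80% of all genes (3.02% higher, 1.78% lower), and Wwtr1 siRNA alone changed 5, 2 higher and 3 lower, against 8.96% (3.96% lower). The comparisons in controls share the same 3 control libraries. Of the 30 genes changed in the double knockdown, 23 were called in neither single knockdown, and 7 of these also differed from both single knockdowns, patterns found in 23.9% and 5.60% of all genes. Smad3 was called in both single knockdowns.

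**Figure D1:**
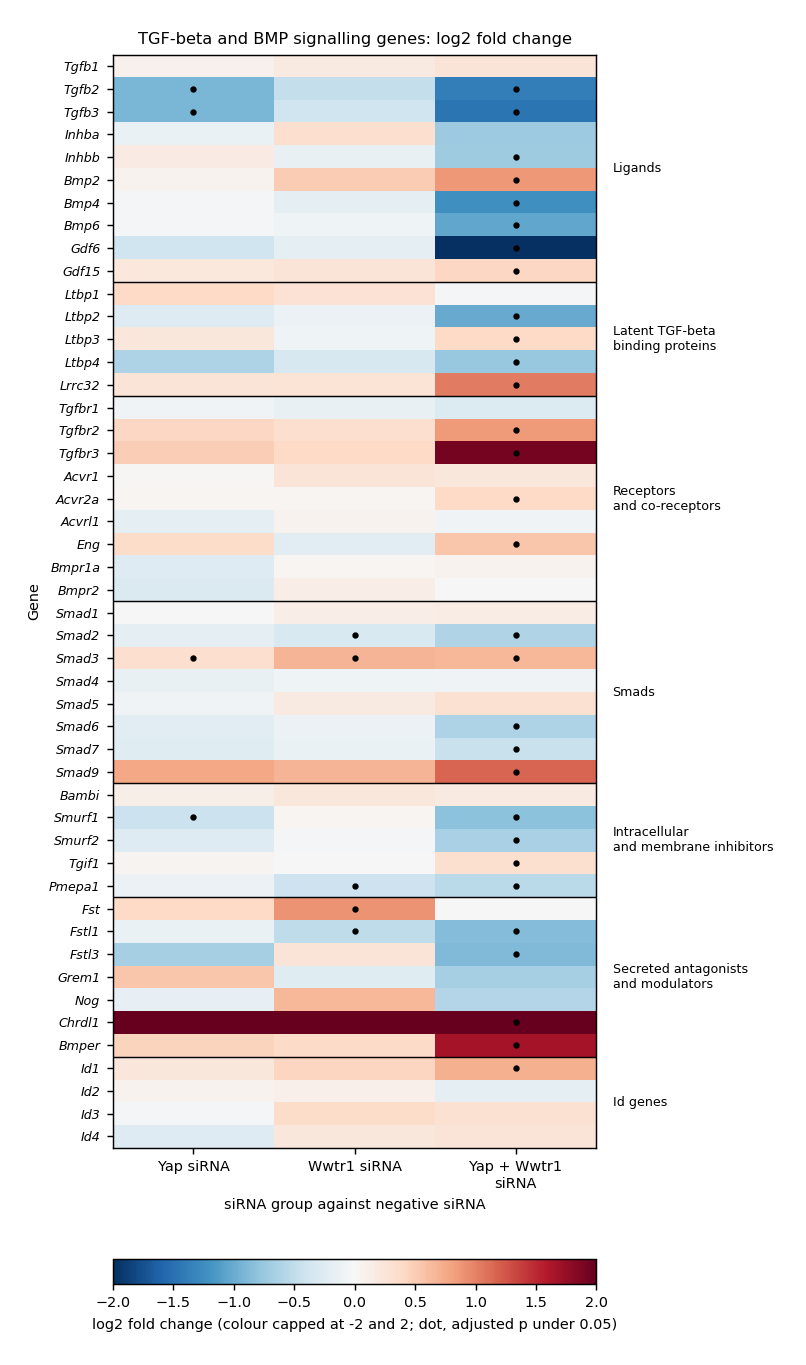
Log2 fold change against negative siRNA of the 48 genes (rows, ordered by role) after Yap siRNA, Wwtr1 siRNA and both (columns), 3 libraries per group. Colour runs from blue (lower) to red (higher) and is capped at -2 and 2, and a dot marks an adjusted p under 0.05. Dots are few with single siRNAs (4 and 5) and number 30 in the double knockdown, with ligands mostly blue and receptors and co-receptors mostly red or pale. The colour of Chrdl1 rests on control libraries listed at 0.

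Calls with a single siRNA depended on how replicates were handled. Same-numbered libraries of the negative, Yap and Wwtr1 groups deviated together, and a fit of these 9 libraries with the replicate number as a block called 18 of the 48 genes after Yap siRNA (9 higher, 9 lower, against 16.0% of all genes) and 16 after Wwtr1 siRNA (9 higher, 7 lower, against 21.3%). All 4 and all 5 earlier calls were kept. With single knockdown calls taken from this fit, 11 genes were called in the double knockdown and in neither single knockdown (14.4% of all genes), and Bmp4, Bmp6, Inhbb, Lrrc32 and Bmper also differed from both (3.66% of all genes). Without the block the same 9 libraries gave 7 calls for each siRNA, against 5.69% of all genes for Yap and 11.1% for Wwtr1. All libraries but double knockdown replicate 3, without a block, also gave 7 calls each, as Ltbp1, Ltbp4 and Fstl3 passed after Yap siRNA (adjusted p 0.0078 to 0.0282) and Id1 and Id3 after Wwtr1 siRNA (0.0178 and 0.0385). For Yap siRNA the 14 gained genes were Gdf6, Ltbp1, Ltbp2, Ltbp4, Tgfbr2, Tgfbr3, Eng, Smad7, Smad9, Smurf2, Fst, Fstl3, Grem1 and Chrdl1. For Wwtr1 siRNA the 11 gained genes were Tgfb2, Tgfb3, Ltbp1, Ltbp4, Tgfbr2, Acvr1, Eng, Fstl3, Chrdl1, Id1 and Id3. Markers of other cell types moved in the blocked fit too. After Yap siRNA 4 of 10 cardiomyocyte markers were higher and 3 of 10 macrophage markers lower, and after Wwtr1 siRNA 7 cardiomyocyte markers were higher, 1 was lower and 7 macrophage markers were lower. Their part in the results was not tested. Values below come from the fit of all 12 libraries without a block, and the value of the blocked fit of 9 libraries is added where it changes a call. The genes gained between the single knockdowns are given with that comparison.

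Among the ligands, Tgfb2 and Tgfb3 fell, whereas Tgfb1 passed no comparison. Tgfb1, the isoform most studied in fibrosis, was at 7174, 6783 and 7479 normalized counts in controls, 8299.8, 6373 and 8326 after Yap siRNA, 7042, 8212 and 9008 after Wwtr1 siRNA, against 7551, 8657 and 9603 in the double knockdown. Its double knockdown libraries lay above the controls, but the difference missed the threshold (log2 fold change 0.26 ± 0.12 SE, adjusted p = 0.13). Tgfb2 was at 5072, 6418 and 8691 in controls, 2821, 3217 and 4605 after Yap siRNA, 4009.9, 4477 and 5895 after Wwtr1 siRNA, against 2854, 2572 and 2189 in the double knockdown. All Yap siRNA and double knockdown libraries were below all controls, and Tgfb2 fell by 0.92 ± 0.22 on the log2 scale after Yap siRNA (adjusted p = 0.0387) and by 1.38 ± 0.22 in the double knockdown (adjusted p = 6.5e-04). With Wwtr1 siRNA the log2 fold change was -0.47 ± 0.22 (adjusted p = 0.21), which passed only with the replicate block (adjusted p = 3.7e-04). Tgfb3 had the same order of groups, at 39961, 35120.1 and 56397 in controls, 20399.6, 20349.8 and 28550.2 after Yap siRNA, 26925, 32767 and 39711 after Wwtr1 siRNA, against 17026, 18267 and 12382 in the double knockdown. It fell by 0.91 ± 0.21 after Yap siRNA (adjusted p = 0.0342) and by 1.45 ± 0.21 in the double knockdown (adjusted p = 3.6e-04). Wwtr1 siRNA gave a log2 fold change of -0.39 ± 0.21 (adjusted p = 0.29, and 0.00611 with the replicate block).

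The double knockdown was also set against each single knockdown. Against Wwtr1 siRNA both were lower, Tgfb2 by a log2 difference of -0.91 ± 0.22 (adjusted p = 0.0136) and Tgfb3 by -1.06 ± 0.21 (adjusted p = 0.00506). Against Yap siRNA the differences were -0.46 ± 0.22 (adjusted p = 0.19) and -0.54 ± 0.21 (adjusted p = 0.11). Their double knockdown values lay near the sum of both single effects, with interaction terms of 0.01 ± 0.31 for Tgfb2 and -0.15 ± 0.30 for Tgfb3, the interaction being what remains of the double knockdown effect once both single effects are subtracted on the log2 scale. The Yap siRNA calls were sensitive to single libraries. That of Tgfb2 was lost without negative replicate 2 or 3, Yap replicate 1 or 2, Wwtr1 replicate 2 or double knockdown replicate 2 (adjusted p from 0.0529 to 0.154), and that of Tgfb3 without negative replicate 1 or 3, Yap replicate 1 or 2 or Wwtr1 replicate 2 (0.0560 to 0.135). The Tgfb2 difference between double knockdown and Wwtr1 siRNA was lost without Wwtr1 replicate 3 (adjusted p = 0.0634). The double knockdown calls of both genes held without any 1 of the 12 libraries, with log2 fold changes of -1.28 for both when double knockdown replicate 3 was left out.

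**Figure D2:**
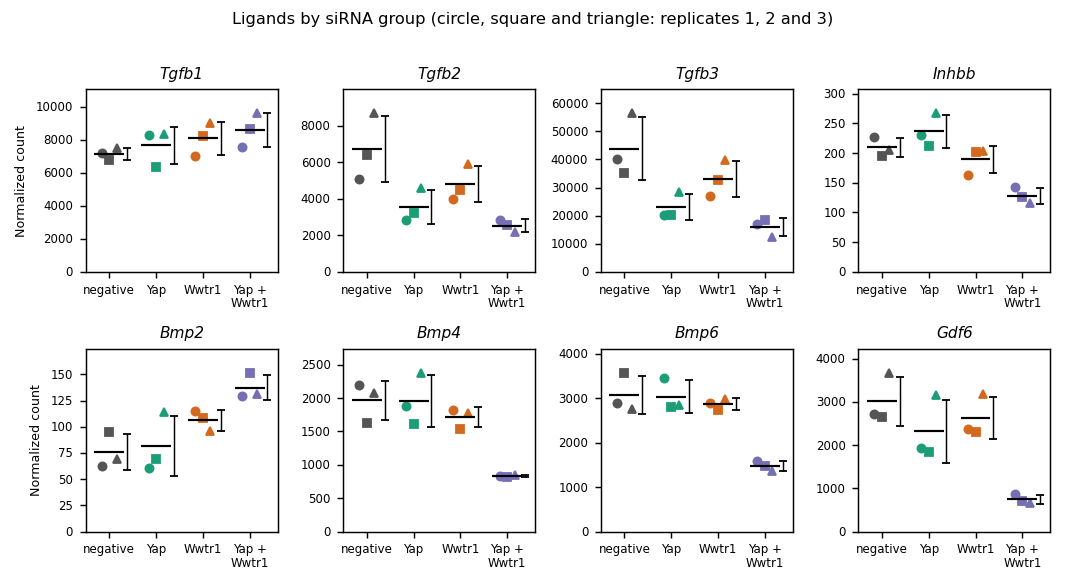
Normalized counts of 8 ligand genes in each library (symbols) by siRNA group (horizontal axis), with the group mean (line) and SD (bar to the right of the points), 3 libraries per group, each vertical axis from 0. Tgfb2 and Tgfb3 are low after Yap siRNA and have their lowest group means in the double knockdown, where Tgfb2 libraries overlap with those after Yap siRNA. Bmp4, Bmp6 and Gdf6 are low in the double knockdown, where Bmp4 lies between 815 and 847 against at least 1542 in every other library.

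The BMP-family ligands Bmp4, Bmp6 and Gdf6 fell in the double knockdown, while Bmp2 rose. Bmp4, a ligand of Smad1 and Smad5 signalling, was at 2193, 1630.3 and 2077 normalized counts in controls, 1878, 1609.6 and 2378 after Yap siRNA, 1819, 1542 and 1784 after Wwtr1 siRNA, against 831, 815 and 847 in the double knockdown. The 3 double knockdown libraries were below all 9 others, and Bmp4 fell by 1.23 ± 0.14 on the log2 scale (adjusted p = 8.4e-05), against log2 fold changes of -0.02 ± 0.14 after Yap siRNA and -0.19 ± 0.14 after Wwtr1 siRNA. Bmp6, which also signals through the BMP receptors, was at 2896, 3572 and 2758 in controls, 3465, 2796 and 2839.5 after Yap siRNA, 2891, 2739 and 2991 after Wwtr1 siRNA, against 1597, 1483 and 1372 in the double knockdown. It likewise separated the double knockdown from all other libraries and fell by 1.04 ± 0.11 (adjusted p = 5.2e-05), with -0.02 ± 0.11 and -0.09 ± 0.11 in the single knockdowns. Gdf6, a BMP-family ligand known from skeletal patterning, was at 2721, 2647 and 3669 in controls, 1943, 1852 and 3157 after Yap siRNA, 2383, 2295 and 3178 after Wwtr1 siRNA, against 865, 704 and 665 in the double knockdown. It showed the largest fall among the 48 genes, by 2.01 ± 0.21 (adjusted p = 4.4e-05), with single effects of -0.41 ± 0.21 and -0.20 ± 0.21. The Yap siRNA effect on Gdf6 passed only with the replicate block (adjusted p = 0.00442).

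Bmp4, Bmp6 and Gdf6 were also lower in the double knockdown than with either single siRNA. Against Yap siRNA the log2 differences were -1.21 ± 0.14 for Bmp4, -1.03 ± 0.11 for Bmp6 and -1.60 ± 0.21 for Gdf6, with adjusted p of at most 7.1e-04. Against Wwtr1 siRNA they were -1.04 ± 0.14, -0.95 ± 0.11 and -1.81 ± 0.21, with adjusted p of at most 6.6e-04. These differences and those in controls held when any 1 of the 12 libraries was left out. They were also the only 3 of the 48 genes whose interaction term passed the test, against 1.03% of all genes (0.607% with a negative term), with values of -1.02 ± 0.20 for Bmp4 (adjusted p = 0.0401), -0.94 ± 0.16 for Bmp6 (adjusted p = 0.0196) and -1.40 ± 0.29 for Gdf6 (adjusted p = 0.0462). The interaction calls sat close to the threshold and were lost without any 1 of 10 libraries for Bmp4 (adjusted p up to 0.0869), without negative replicate 1 or Wwtr1 replicate 1 or 2 for Bmp6 (up to 0.0519) and without any 1 of 11 libraries for Gdf6 (up to 0.111), while no interaction value was above -0.84 in any of these fits.

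The remaining ligands split. Inhbb, the activin beta B subunit, was at 227, 196 and 206 normalized counts in controls, 231, 212 and 267 after Yap siRNA, 163, 201 and 204 after Wwtr1 siRNA, against 143, 125 and 116 in the double knockdown. Its double knockdown libraries were the lowest of the 12, and it fell by 0.71 ± 0.16 against negative siRNA (adjusted p = 0.00509) and differed by -0.88 ± 0.16 from Yap siRNA (adjusted p = 0.00426). Inhba, the activin beta A subunit, passed no comparison without the replicate block and had its lowest value, 441, in double knockdown replicate 3, against 1344 and 1066 in replicates 1 and 2. Bmp2 went the other way, at 62.6, 95.0 and 69.2 in controls, 60.4, 69.6 and 114 after Yap siRNA, 115, 108 and 95.5 after Wwtr1 siRNA, against 129, 151 and 132 in the double knockdown, a rise of 0.87 ± 0.26 (adjusted p = 0.0214). Gdf15, a distant and stress-induced family member, was at 1212, 1257 and 1403 in controls, 1670.0, 1556 and 1283 after Yap siRNA, 1482, 1511 and 1619 after Wwtr1 siRNA, against 1722, 2006 and 1443 in the double knockdown (log2 fold change 0.41 ± 0.13, adjusted p = 0.0271). The Bmp2 call was lost without negative replicate 1 or 3 or double knockdown replicate 2 (adjusted p 0.0687 to 0.0736), and that of Gdf15 without negative replicate 1 or 2 or double knockdown replicate 1 or 2 (0.0650 to 0.109).

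Because Tgfb2 and Tgfb3 fell together after Yap siRNA, because Bmp4 and Bmp6 fell together in the double knockdown, and because Tgfbr3 rose most among the receptors, the 250 bases before the annotated transcript start of these 5 genes are shown, 5′ to 3′ on the coding strand, from RefSeq on build GRCr8. The deposited values use build rn6, so these coordinates do not apply to them. A promoter sequence was at hand for 39 of the 48 genes, Gdf6 not among them. Capitals mark matches, on either strand, to the letters GGAATG (the TEAD core), CAGAC (a Smad box), GGCGCC (a BMP-responsive element) and TGANTCA (the AP-1 site). The Tgfb2 window is chr13:100792686-100792935 (minus strand), that of Tgfb3 chr6:111456947-111457196 (minus), that of Bmp4 chr15:22101934-22102183 (minus), that of Bmp6 chr17:26675262-26675511 (minus) and that of Tgfbr3 chr14:2634044-2634293 (plus).
Tgfb2: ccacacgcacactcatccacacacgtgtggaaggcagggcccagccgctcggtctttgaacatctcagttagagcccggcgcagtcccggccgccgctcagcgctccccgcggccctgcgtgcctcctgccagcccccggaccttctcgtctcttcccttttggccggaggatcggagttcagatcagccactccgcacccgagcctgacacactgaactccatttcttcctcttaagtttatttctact
Tgfb3: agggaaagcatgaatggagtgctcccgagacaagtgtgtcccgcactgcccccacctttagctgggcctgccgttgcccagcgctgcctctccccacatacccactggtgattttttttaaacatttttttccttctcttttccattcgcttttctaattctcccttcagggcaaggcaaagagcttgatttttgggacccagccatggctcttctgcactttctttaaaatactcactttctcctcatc
Bmp4: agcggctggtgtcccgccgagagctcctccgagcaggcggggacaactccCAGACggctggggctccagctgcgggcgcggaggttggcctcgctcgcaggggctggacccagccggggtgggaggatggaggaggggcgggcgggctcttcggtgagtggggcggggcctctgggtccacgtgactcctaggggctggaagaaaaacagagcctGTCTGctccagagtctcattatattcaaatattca
Bmp6: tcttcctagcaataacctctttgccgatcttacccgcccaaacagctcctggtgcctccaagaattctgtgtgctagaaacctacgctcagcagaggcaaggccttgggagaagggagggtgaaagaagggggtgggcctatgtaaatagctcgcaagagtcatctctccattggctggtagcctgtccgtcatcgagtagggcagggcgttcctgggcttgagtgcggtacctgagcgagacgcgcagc
Tgfbr3: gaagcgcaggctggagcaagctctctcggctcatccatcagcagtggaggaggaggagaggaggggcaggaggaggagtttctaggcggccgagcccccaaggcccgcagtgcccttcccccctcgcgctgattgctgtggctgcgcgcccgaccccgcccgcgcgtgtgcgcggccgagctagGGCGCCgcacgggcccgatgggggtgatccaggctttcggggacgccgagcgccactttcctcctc
Bmp4 held 2 Smad boxes, at positions -200 and -35 from the start (the second as the reverse complement), Tgfbr3 held 1 GGCGCC at -66, and the Tgfb2, Tgfb3 and Bmp6 windows held none of the 4 motifs. Over all 33469 promoters the shares with a match were 12.1% for GGAATG, 42.9% for CAGAC, 8.69% for GGCGCC and 6.34% for TGANTCA. Among the 39 genes, 1 (Id3) held GGAATG, 9 held CAGAC, 11 held GGCGCC and 1 (Bmpr1a) held TGANTCA. A match says that the letters are present, and no match says only that they are not in this window.

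Of the latent TGF-beta carriers and their relative Ltbp2, Lrrc32 and Ltbp3 rose and Ltbp2 and Ltbp4 fell in the double knockdown. Lrrc32, which displays latent TGF-beta on the cell membrane, was at 12919, 14595 and 9746 normalized counts in controls, 17676, 15503 and 11553 after Yap siRNA, 19122, 13531 and 12549 after Wwtr1 siRNA, against 27249, 22851 and 25680.1 in the double knockdown. All double knockdown libraries were above the 9 others. Lrrc32 rose by 1.04 ± 0.19 against negative siRNA (adjusted p = 0.0017) and differed by 0.78 ± 0.19 from Yap siRNA (adjusted p = 0.0208) and by 0.77 ± 0.19 from Wwtr1 siRNA (adjusted p = 0.0166). The difference from Yap siRNA was lost without Yap replicate 3 (adjusted p = 0.0927) or double knockdown replicate 1 (0.0676), and that from Wwtr1 siRNA without Wwtr1 replicate 2 or 3 or double knockdown replicate 1 (0.0519 to 0.0735).

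Ltbp4, a matrix tether of latent TGF-beta that also takes part in elastic fibre assembly, was at 18911, 17507 and 18283 in controls, 10962, 12683 and 11927 after Yap siRNA, 12321, 15236 and 16714 after Wwtr1 siRNA, against 8580.0, 9909 and 14768 in the double knockdown. Every siRNA library lay below every control, and the fall of 0.76 ± 0.17 in the double knockdown passed (adjusted p = 0.00495), while the values for Yap siRNA (-0.62 ± 0.17, adjusted p = 0.0573) and Wwtr1 siRNA (-0.32 ± 0.17, adjusted p = 0.28) passed with the replicate block (8.7e-04 and 0.0245). Ltbp2, a matrix protein of the same family that does not bind latent TGF-beta, was at 30457, 33108 and 40797 in controls, 24546, 28361 and 34135 after Yap siRNA, 24507, 31253 and 42025 after Wwtr1 siRNA, against 21520.2, 22643 and 10277 in the double knockdown. It fell in the double knockdown by 1.01 ± 0.28 (adjusted p = 0.0156), where replicate 3 was the lowest library, and by 0.65 without that replicate (adjusted p = 0.0282). After Yap siRNA the value of -0.26 ± 0.28 passed with the replicate block (adjusted p = 0.0235). The double knockdown call was lost without negative replicate 3 (adjusted p = 0.0638). Ltbp3, which binds latent TGF-beta, was at 13436, 12569 and 11365 in controls, 15276, 15437 and 13153 after Yap siRNA, 11073, 11605 and 12527 after Wwtr1 siRNA, against 16204, 15334 and 17647 in the double knockdown, a rise that separated these libraries from the controls (0.40 ± 0.09, adjusted p = 0.0052). It was also higher with Yap than after Wwtr1 siRNA, by 0.32 ± 0.09 (adjusted p = 0.0472), a call lost without any 1 of 9 libraries (adjusted p up to 0.148). Ltbp1 passed no comparison in the fit of 12 libraries. With Yap and Wwtr1 siRNA its log2 fold changes were 0.39 ± 0.14 and 0.29 ± 0.14, which passed with the replicate block (adjusted p = 0.0153 and 0.0482), and in the double knockdown -0.02 ± 0.14.

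Of the receptors, Tgfbr2, Acvr2a and the co-receptors Tgfbr3 and Eng rose in the double knockdown. Tgfbr3 (betaglycan), a co-receptor that presents TGF-beta, above all Tgfb2, to the signalling receptors, was at 899, 1022 and 560.2 normalized counts in controls, 1334, 1343 and 804 after Yap siRNA, 1311, 984 and 906 after Wwtr1 siRNA, against 3451, 2616 and 3089 in the double knockdown. Every double knockdown library exceeded every other library, and the mean was 3.69 times that of the controls. The rise was 1.92 ± 0.25 on the log2 scale against negative siRNA (adjusted p = 1.6e-04), and the differences from Yap siRNA (1.42 ± 0.25, adjusted p = 0.00337) and Wwtr1 siRNA (1.52 ± 0.25, adjusted p = 0.00168) also passed and held without any 1 library. Its interaction term of 1.03 ± 0.35 did not pass (adjusted p = 0.20). Replicate 3 was the lowest library of the negative, Yap and Wwtr1 groups for Tgfbr3, and the Yap siRNA value of 0.49 ± 0.25 (adjusted p = 0.29) passed with the replicate block (adjusted p = 0.0252).

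Tgfbr2, the kinase receptor that first binds TGF-beta, was at 5071, 5337 and 3371 in controls, 6388, 7128 and 4703 after Yap siRNA, 6627, 5573 and 5032 after Wwtr1 siRNA, against 8976, 7058 and 8480.2 in the double knockdown. It rose by 0.85 ± 0.19 in the double knockdown (adjusted p = 0.00514), where its lowest library was above the highest control, whereas the values for Yap (0.41 ± 0.19) and Wwtr1 siRNA (0.34 ± 0.19) passed only with the block (adjusted p = 0.0119 and 0.0221). Tgfbr1, its signalling partner, was at 2446, 2545 and 1926 in controls, 2057, 2511 and 2002 after Yap siRNA, 2138, 2327 and 1751 after Wwtr1 siRNA, against 1714, 1724 and 2314 in the double knockdown. It passed no comparison (double knockdown -0.27 ± 0.15, adjusted p = 0.20), but without double knockdown replicate 3 the value was -0.41 (adjusted p = 0.0492).

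Endoglin (Eng), a co-receptor abundant in endothelium and also present on cardiac fibroblasts, was at 24429, 22215 and 26670.0 in controls, 33239, 27647 and 33929.7 after Yap siRNA, 20601, 19016 and 24084 after Wwtr1 siRNA, against 37245, 35819 and 33940.0 in the double knockdown. The single siRNAs gave fold changes of opposite sign, 0.37 ± 0.11 for Yap (adjusted p = 0.0753, and 0.00112 with the block) and -0.21 ± 0.11 for Wwtr1 (adjusted p = 0.27, and 0.0194 with the block). Between the single knockdowns it was higher after Yap siRNA by 0.57 ± 0.11 (adjusted p = 0.00779). In the double knockdown it rose by 0.55 ± 0.11 (adjusted p = 0.0023). Beside this, 6 of 11 endothelial markers were higher in the double knockdown and none lower, while their summed level ran from 4720 to 5201 normalized counts in controls, 4016 to 4402 after Yap siRNA, 5996 to 6382 after Wwtr1 siRNA and 4612 to 5722 in the double knockdown. No marker was at 0 in every library of a group, and their part in the Eng result was not tested.

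The activin receptor Acvr2a was at 433, 396 and 346 in controls, 378, 441 and 391 after Yap siRNA, 437, 401 and 369.9 after Wwtr1 siRNA, against 543, 508 and 498 in the double knockdown, a rise of 0.40 ± 0.12 (adjusted p = 0.0207) that was lost without negative replicate 3 (adjusted p = 0.0903) or double knockdown replicate 1 (0.0665). The BMP-side receptors Acvr1, Acvrl1, Bmpr1a and Bmpr2 passed no comparison without the block, with log2 fold changes in the double knockdown of 0.22 ± 0.10, -0.07 ± 0.08, 0.08 ± 0.12 and -0.00 ± 0.20. Without double knockdown replicate 3, Acvr1 passed at 0.33 (adjusted p = 0.0147). With Wwtr1 siRNA, Acvr1 was at 0.25 ± 0.10 (adjusted p = 0.16, and 0.0381 with the block).

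**Figure D3:**
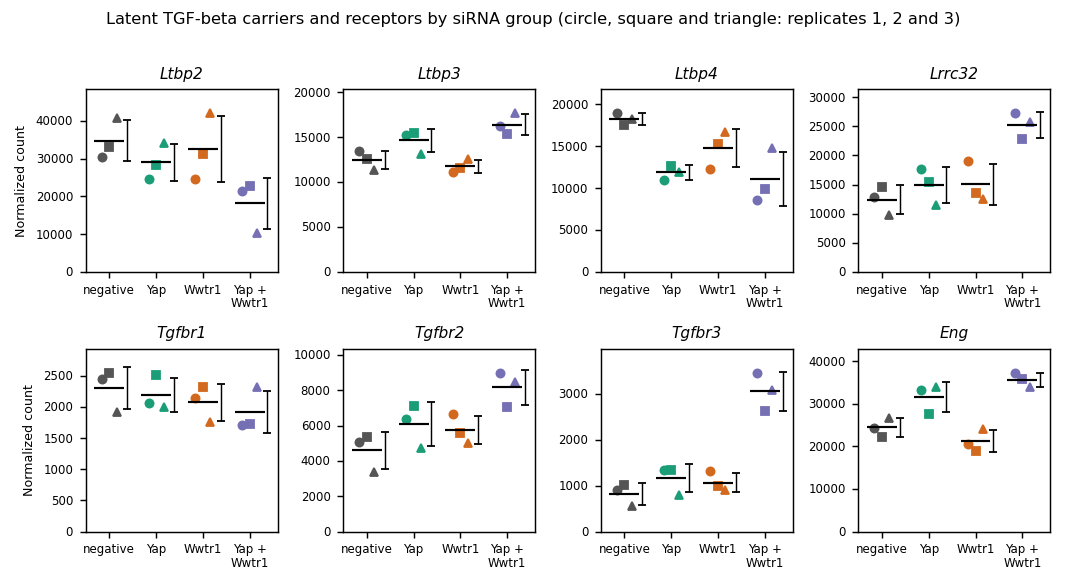
Normalized counts of 3 latent binding protein family genes, Lrrc32 and 4 receptor genes in each library (symbols) by siRNA group (horizontal axis), with the group mean (line) and SD (bar to the right of the points), 3 libraries per group, each vertical axis from 0. Tgfbr3 lies between 2616 and 3451 in the double knockdown and at most at 1343 elsewhere, and replicate 3 (triangle) of the double knockdown stands apart for Ltbp2 and Ltbp4.

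Among the Smads, the pair that carries TGF-beta signals changed in opposite directions. Smad2 was at 2274, 2543 and 2474 normalized counts in controls, 2069, 2006 and 2296 after Yap siRNA, 2053, 1933 and 1910.4 after Wwtr1 siRNA, against 1569, 1653 and 1592 in the double knockdown. It fell by 0.31 ± 0.07 after Wwtr1 siRNA (adjusted p = 0.0233) and by 0.60 ± 0.07 in the double knockdown (adjusted p = 1.2e-04), whose libraries were below all others. Smad3 was at 1689, 1835 and 1664 in controls, 2221, 2019.8 and 2346 after Yap siRNA, 2828, 2613 and 2915 after Wwtr1 siRNA, against 2895, 2606 and 2725 in the double knockdown. It rose by 0.34 ± 0.08 after Yap siRNA (adjusted p = 0.0329), by 0.69 ± 0.08 after Wwtr1 siRNA (adjusted p = 6.6e-04) and by 0.66 ± 0.08 in the double knockdown (adjusted p = 9.4e-05). The double knockdown was 0.32 ± 0.08 above Yap siRNA (adjusted p = 0.0191) and -0.02 ± 0.08 from Wwtr1 siRNA (adjusted p = 0.87), so Smad3 in the double knockdown overlapped with that after Wwtr1 siRNA. Smad4, the shared partner Smad, ran from 4194 to 4885 over all 12 libraries and passed no comparison (double knockdown -0.06 ± 0.05, adjusted p = 0.40). The Smad2 call after Wwtr1 siRNA was lost without negative replicate 2 or 3 or Wwtr1 replicate 2 or 3 (adjusted p 0.0714 to 0.0891), and the Smad3 call after Yap siRNA without negative replicate 1 or 3 or Yap replicate 1 or 3 (0.0809 to 0.129), while the other 3 calls against negative siRNA held in all 12 fits.

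Of the Smads that carry BMP signals, Smad9 was at 52.3, 65.0 and 51.7 in controls, 85.0, 126 and 83.8 after Yap siRNA, 98.1, 88.8 and 85.4 after Wwtr1 siRNA, against 166, 153 and 79.0 in the double knockdown. All 9 siRNA libraries were above the controls, and the rise of 1.16 ± 0.29 in the double knockdown passed (adjusted p = 0.00932), as did the Yap siRNA value of 0.78 ± 0.29 with the block (adjusted p = 0.0430). Smad1 and Smad5 passed no comparison (double knockdown 0.15 ± 0.10 and 0.31 ± 0.12, adjusted p = 0.28 and 0.0719), but Smad1 did without double knockdown replicate 3 (0.29, adjusted p = 0.00815). The inhibitory Smads were lower. Smad7, which blocks the receptors and is itself induced by TGF-beta, was at 5018, 4244 and 4739 in controls, 3836, 3884 and 4084 after Yap siRNA, 4167, 4311 and 4297 after Wwtr1 siRNA, against 3327, 3798 and 3130.1 in the double knockdown, a fall of 0.45 ± 0.08 (adjusted p = 0.00151). Its Yap siRNA value of -0.24 ± 0.08 passed with the block (adjusted p = 0.0281). Smad6, which opposes BMP signals, differed by -0.62 ± 0.22 (adjusted p = 0.0479) with overlapping libraries, at 1654, 2504 and 1274 in the double knockdown against 2696, 2442 and 2930.1 in controls, and the value was -0.40 (adjusted p = 0.15) without double knockdown replicate 3. The Smad6 call was also lost without any other 1 of 7 libraries, among them all 3 controls (adjusted p up to 0.141). A replicate block over all 12 libraries, the edgeR count model, the compared groups alone and a fit without the trend lost it too.

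Intracellular and membrane inhibitors were mostly lower in the double knockdown. Smurf1, a ubiquitin ligase that marks Smads and receptors for degradation, was at 5054, 5237 and 5642 normalized counts in controls, 3615, 3742 and 4512 after Yap siRNA, 4837, 5375 and 6198 after Wwtr1 siRNA, against 2882, 3345 and 2812 in the double knockdown. It fell after Yap siRNA by 0.43 ± 0.11 (adjusted p = 0.0467) and in the double knockdown by 0.82 ± 0.11 (adjusted p = 2.1e-04), with 0.04 ± 0.11 for Wwtr1 siRNA. The single knockdowns differed from each other by -0.47 ± 0.11 (Yap minus Wwtr1, adjusted p = 0.0235). Its relative Smurf2 was at 8341, 8385 and 9978 in controls, 6734, 7351 and 8348 after Yap siRNA, 7860.2, 8579 and 9649.5 after Wwtr1 siRNA, against 6024, 6427 and 4748 in the double knockdown. It fell there by 0.64 ± 0.13 (adjusted p = 0.0024), and after Yap siRNA the value of -0.25 ± 0.13 passed with the replicate block (adjusted p = 0.00678). Pmepa1, a TGF-beta-induced membrane protein that limits Smad2 and Smad3, was at 12666, 10188 and 12233 in controls, 10767, 9483 and 11965 after Yap siRNA, 8213, 8782 and 9153 after Wwtr1 siRNA, against 8094, 8497 and 7439 in the double knockdown. It fell by 0.42 ± 0.10 after Wwtr1 siRNA (adjusted p = 0.0249) and by 0.54 ± 0.10 in the double knockdown (adjusted p = 0.00185). The Smurf1 call after Yap siRNA was lost without any 1 of 8 libraries, all controls and Yap replicates 1 and 2 among them (adjusted p up to 0.178), and that of Pmepa1 after Wwtr1 siRNA without negative replicate 1 or 3 or Wwtr1 replicate 1 or 2 (up to 0.0972). Tgif1, a nuclear corepressor of Smad2 and Smad3, was at 2314, 2759 and 2416 in controls, 2840.0, 2535 and 2390.2 after Yap siRNA, 2605, 2441 and 2389 after Wwtr1 siRNA, against 3242, 3505 and 2645 in the double knockdown. It differed by 0.32 ± 0.11 (adjusted p = 0.0401) from controls with overlapping libraries and was lost without any 1 of 6 libraries (adjusted p up to 0.15), and the pseudoreceptor Bambi passed no comparison (0.18 ± 0.10).

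Secreted modulators were led by Bmper. This gene, whose product binds BMPs outside the cell, was at 183, 285 and 224 normalized counts in controls, 301, 351 and 278 after Yap siRNA, 307, 304 and 276 after Wwtr1 siRNA, against 599, 603 and 1027 in the double knockdown. All double knockdown libraries were above the 9 others, replicate 3 highest. Bmper rose by 1.66 ± 0.21 (adjusted p = 1.7e-04) and differed by 1.22 ± 0.21 from Yap siRNA (adjusted p = 0.00387) and 1.28 ± 0.21 from Wwtr1 siRNA (adjusted p = 0.00211), calls that held without any 1 library. Fstl1, a secreted glycoprotein made by cardiac fibroblasts, was at 67355, 68016 and 78336 in controls, 58643, 65276 and 72127 after Yap siRNA, 49648, 46934 and 53148 after Wwtr1 siRNA, against 43588, 38977 and 34671 in the double knockdown. It fell by 0.51 ± 0.11 after Wwtr1 siRNA (adjusted p = 0.0115) and by 0.87 ± 0.11 in the double knockdown (adjusted p = 1.2e-04), with -0.13 ± 0.11 for Yap siRNA. The difference between Yap and Wwtr1 siRNA passed (0.39 ± 0.11, adjusted p = 0.0442). Without negative replicate 3 or Wwtr1 replicate 2 the Wwtr1 siRNA call was lost (adjusted p = 0.0563 and 0.0585), and the difference between the single knockdowns was lost without any 1 of 8 libraries (up to 0.158).

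Among activin-binding follistatins, Fstl3 fell in the double knockdown and Fst rose after Wwtr1 siRNA, and with the replicate block both also differed from controls after the other single siRNAs. Fstl3 was at 750.1, 813 and 893 in controls, 443, 530.1 and 579 after Yap siRNA, 864, 969 and 1105 after Wwtr1 siRNA, against 471, 615 and 295 in the double knockdown. It fell in the double knockdown by 0.89 ± 0.22 (adjusted p = 0.00847), and its Yap siRNA value of -0.67 ± 0.22 (adjusted p = 0.11) passed with the replicate block (adjusted p = 4.3e-04), as did its Wwtr1 siRNA value of 0.25 ± 0.22 (0.0477). Yap and Wwtr1 siRNA differed by -0.92 ± 0.22 (adjusted p = 0.0236). Fst was at 701, 465 and 618 in controls, 821, 586 and 960.5 after Yap siRNA, 1163, 799 and 1425 after Wwtr1 siRNA, against 728, 453 and 608 in the double knockdown. It rose after Wwtr1 siRNA by 0.90 ± 0.25 (adjusted p = 0.0449), a call lost without any control, Yap replicate 1 or Wwtr1 replicate 1 or 3 (adjusted p up to 0.148), and the Yap siRNA value of 0.40 ± 0.25 passed with the block (adjusted p = 0.0258). The double knockdown differed from controls by -0.00 ± 0.25, and it was 0.91 ± 0.25 below Wwtr1 siRNA on the log2 scale (adjusted p = 0.0262). Its interaction term of -1.30 ± 0.36 did not pass (adjusted p = 0.11).

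Grem1, a secreted BMP antagonist, was at 988, 998 and 1328 in controls, 1272, 1579.6 and 2036 after Yap siRNA, 739, 921 and 1156 after Wwtr1 siRNA, against 639, 994 and 509.8 in the double knockdown. Against negative siRNA it did not pass in the fit of 12 libraries (Yap 0.55 ± 0.25, Wwtr1 -0.24 ± 0.25, double knockdown -0.67 ± 0.25 with adjusted p = 0.0577), and with the block the Yap siRNA value did (adjusted p = 0.00146). The double knockdown was lower than Yap siRNA by 1.22 ± 0.25 on the log2 scale (adjusted p = 0.0084). Nog, another BMP antagonist, was low (13.9 to 64.0) and passed no comparison. Chrdl1, a chordin-like BMP antagonist, was listed at 11.3, 0 and 0 in controls and at 21.9, 14.2 and 39.5 in the double knockdown. Its test passed (adjusted p = 0.0182), but no fold change is given because 2 control libraries were at 0, and its single knockdown tests passed with the block (adjusted p = 0.0379 for Yap and 0.0291 for Wwtr1). Chrdl1 reached the minimum mean of 10 only through its siRNA libraries. No conclusion is therefore drawn from its tests, though it is counted among the called genes above. The double knockdown call was lost without negative replicate 2 or 3 or double knockdown replicate 3 (adjusted p 0.0519 to 0.0720). It was also lost with the edgeR count model and with the compared groups alone.

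Id genes, which encode inhibitors of helix-loop-helix transcription factors, passed in the double knockdown for Id1 alone. Id1 was at 1168, 1429 and 1194 normalized counts in controls, 1381, 1657 and 1393 after Yap siRNA, 1675, 1577 and 1862 after Wwtr1 siRNA, against 1982, 2555 and 1744 in the double knockdown. It rose by 0.72 ± 0.14 in the double knockdown (adjusted p = 0.00216), and its Wwtr1 siRNA value of 0.43 ± 0.14 (adjusted p = 0.0739) passed with the replicate block (adjusted p = 0.0106). Id3 was at 9499, 8449 and 9235 in controls, 9414, 7841 and 9541 after Yap siRNA, 11609, 10925 and 12503 after Wwtr1 siRNA, against 12339, 12583 and 9077 in the double knockdown. Its Wwtr1 siRNA libraries were above all controls (0.37 ± 0.12, adjusted p = 0.0864, and 9.9e-04 with the block), whereas in the double knockdown replicate 3 fell within the controls and the value was 0.31 ± 0.12 (adjusted p = 0.0717). Without double knockdown replicate 3, Id3 (0.46, adjusted p = 0.00348) and Id4 (0.46, adjusted p = 0.0260) passed. Id4, at 706, 904 and 753 in controls, 694, 685 and 595 after Yap siRNA, 911, 898 and 951 after Wwtr1 siRNA, against 931, 1248 and 699 in the double knockdown, passed no comparison with all libraries and no block. Id2, at 3474, 3243 and 3565, 3343, 3667 and 3742, 3393, 3550.3 and 4093, and 2707, 3482 and 2821 in the same order of groups, passed none either, with -0.20 ± 0.10 in the double knockdown. Id1 rose in the libraries in which Bmp4, Bmp6 and Gdf6 fell.

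**Figure D4:**
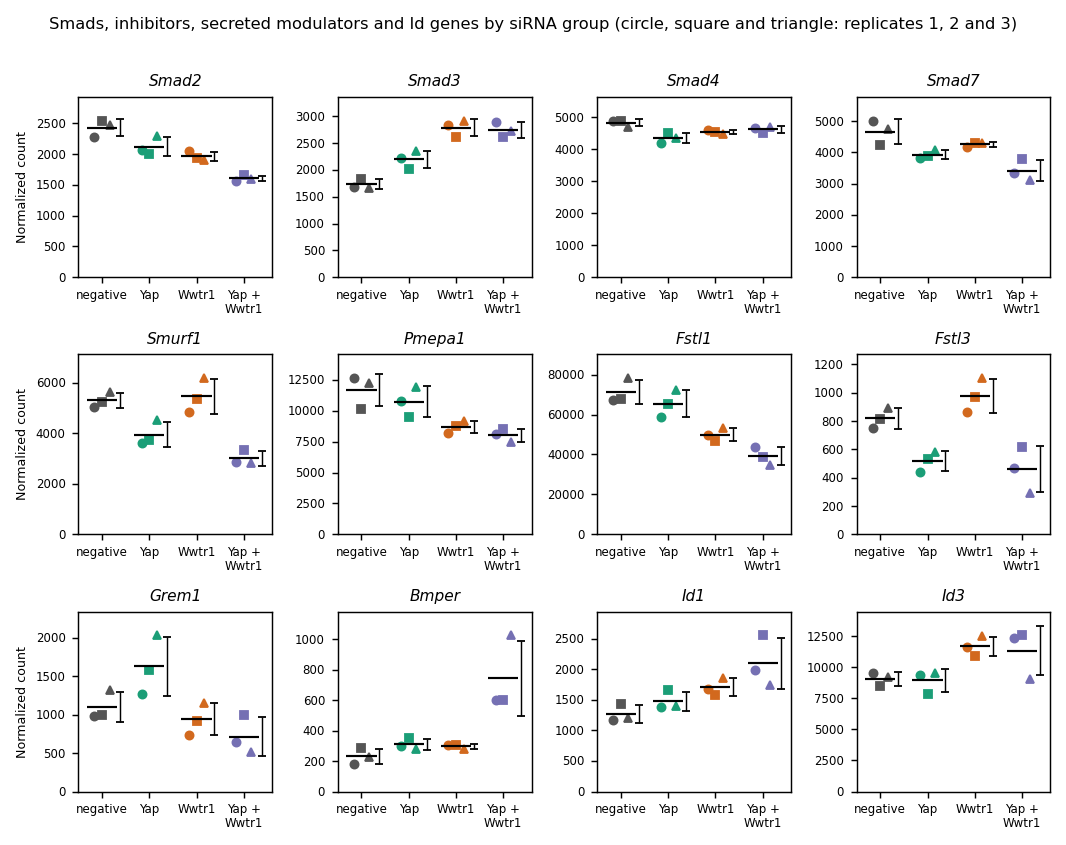
Normalized counts of 4 Smads, Smurf1, Pmepa1, 4 secreted modulators and 2 Id genes in each library (symbols) by siRNA group (horizontal axis), with the group mean (line) and SD (bar to the right of the points), 3 libraries per group, each vertical axis from 0. Smad2 is lower and Smad3 higher in the double knockdown than in controls, Smurf1 and Fstl3 are low in both groups that received Yap siRNA, and Fstl1 and Pmepa1 are low after Wwtr1 siRNA and in the double knockdown.

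Comparing the groups of knocked-down cells with each other, the double knockdown differed from Yap siRNA in 14 of the 48 genes (5 higher, 9 lower, against 13.8% of all genes, 6.83% higher and 6.96% lower) and from Wwtr1 siRNA in 20 (6 higher, 14 lower, against 19.9%, 9.75% higher and 10.1% lower). Without double knockdown replicate 3, Smurf1 lost its call against Yap siRNA (adjusted p = 0.0771) and Acvr1, Smad1, Tgif1, Id3 and Id4 gained one (0.0067 to 0.0391). Against Wwtr1 siRNA, Inhbb, Ltbp2, Acvr2a, Smad7 and Fstl1 lost theirs (0.0513 to 0.0957) and Ltbp4, Smad9 and Tgif1 gained one (0.0035 to 0.0395). Other calls between these groups also rested on single libraries. Against Yap siRNA, Smad3 was lost without Yap replicate 2 (adjusted p = 0.0632) or double knockdown replicate 1 (0.0696) and Pmepa1 without Yap replicate 3 (0.0890). Smurf1 was also lost without Yap replicate 2 or 3, Wwtr1 replicate 2 or double knockdown replicate 1 (up to 0.147). Id1 was lost without Yap replicate 1 or 3 or double knockdown replicate 1 or 2 (up to 0.124). Against Wwtr1 siRNA, Fst was lost without Wwtr1 replicate 1 or 3 or double knockdown replicate 2 (0.0670 to 0.110). Inhbb was also lost without Wwtr1 replicate 2 or 3 or double knockdown replicate 2 (up to 0.103) and Smad2 without Wwtr1 replicate 1 (0.0538). Smad7 was also lost without Wwtr1 replicate 2 or 3 or double knockdown replicate 1 (up to 0.0595) and Fstl1 without any Wwtr1 library or double knockdown replicate 2 (up to 0.126). Ltbp2 was lost there without any 1 of 6 libraries (up to 0.159) and Acvr2a without any 1 of 10 (up to 0.169). The single knockdowns differed from each other in 6 genes, Ltbp3, Eng and Fstl1 higher and Smad3, Smurf1 and Fstl3 lower after Yap siRNA (against 8.79% of all genes, 4.57% higher and 4.22% lower). Without double knockdown replicate 3, Grem1, Id3 and Id4 passed too (adjusted p 0.0140 to 0.0382). Without any double knockdown library the count was 9 (against 11.1%), and with the replicate block on the same 9 libraries it was 19 (5 higher, 14 lower, against 22.6%), the gained genes being Grem1 (0.79) and Pmepa1 (0.30), higher after Yap siRNA, and 11 that were lower. Those were Tgfb2 (-0.45), Tgfb3 (-0.52), Inhba (-0.47), Ltbp4 (-0.31), Acvrl1 (-0.26), Bmpr1a (-0.30), Bmpr2 (-0.42), Smurf2 (-0.22), Fst (-0.51), Id3 (-0.39) and Id4 (-0.49), with adjusted p up to 0.0281. The calls of Smad3, Smurf1 and Fstl3 between single knockdowns were each lost without Yap replicate 1 or 2, Wwtr1 replicate 3 or 1 other Wwtr1 replicate (replicate 1 for Smad3, replicate 2 for Smurf1 and Fstl3; adjusted p 0.0538 to 0.0917), and the call of Eng held in all fits. The plot of summed single effects against double knockdown effects places Tgfb2 and Tgfb3 on the diagonal, Bmp4, Bmp6 and Gdf6 below it, and Tgfbr3, Bmper and Lrrc32 above it, the latter 3 without a significant interaction (adjusted p = 0.20, 0.23 and 0.45). Other genes without a significant interaction also lay below it. Among them were Fst (1.30 summed, -0.00 in the double knockdown), Nog (0.51, -0.59), Grem1 (0.30, -0.67) and Inhba (0.21, -0.72).

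**Figure D5:**
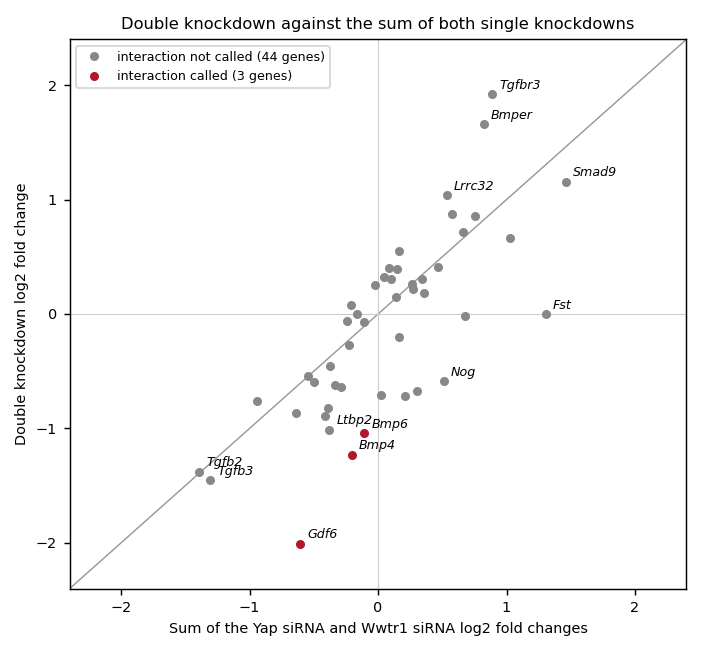
Log2 fold change in the double knockdown (vertical axis) against the sum of the Yap siRNA and Wwtr1 siRNA log2 fold changes (horizontal axis) for 47 genes (points, Chrdl1 left out because control libraries were at 0), with the line of equality. Red points mark the 3 genes with a significant interaction, Bmp4, Bmp6 and Gdf6, which lie below the line, and grey points the other 44, which lie on both sides of it.

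Further genes of the pathway, from a list of 72, were tested where present (48 genes). In the double knockdown 16 of them changed, 11 higher and 5 lower, with a median log2 fold change of 0.14, a share near the 32.8% of all genes called. Each single siRNA changed 3, against 4.80% of all genes for Yap and 8.96% for Wwtr1. Of 10 further ligand and processing genes, 3 rose and 1 fell in the double knockdown (median log2 fold change 0.45). The mostly falling ligands described above were thus not matched by this list. Among secreted antagonists 4 of 8 rose and none fell, including Dcn (decorin, a proteoglycan that binds TGF-beta), with a log2 fold change of 2.01 ± 0.39 (adjusted p = 0.00211), and Sost (1.13 ± 0.40, adjusted p = 0.048). Dcn was at 8338, 6793 and 4425 normalized counts in controls and 19496, 16321 and 51879 in the double knockdown, replicate 3 standing highest. Of 6 tested genes for the activation of latent TGF-beta, 2 fell and none rose. These were Thbs1 (thrombospondin 1), by 1.08 ± 0.17 (adjusted p = 5.6e-04), and the integrin gene Itgb6, by 1.86 ± 0.51 (adjusted p = 0.0155). Itgb6 was low, at 29.8, 42.0 and 33.1 in controls against 14.9, 5.02 and 8.78 in the double knockdown. Gdf10, a TGF-beta family ligand near 0 in controls (5.13, 0 and 3.10), was at 23.0, 18.4 and 12.2 after Wwtr1 siRNA, against 57.7, 90.3 and 104 in the double knockdown (adjusted p = 0.0368 and 3.6e-04). It reached the minimum mean of 10 only through its siRNA libraries, so no conclusion is drawn from these tests.

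Genes known to respond to TGF-beta gave a divided picture. Of 18 tested, 9 changed in the double knockdown, 3 higher and 6 lower, with a median of 0.03, against 17.1% of all genes higher and 15.6% lower. Among those that fell by more than 1 on the log2 scale were the matrix receptor subunit Itga11 (-1.86 ± 0.20), the oxidase Nox4 (-1.69 ± 0.19) and the contractile genes Acta2 (-1.18 ± 0.23) and Tagln (-1.16 ± 0.22), with adjusted p of at most 0.00243. Nox4 also fell after Yap siRNA (-1.03 ± 0.19, adjusted p = 0.0123). Tgfbi, a matrix protein named for its induction by TGF-beta, rose by 2.28 ± 0.24 (adjusted p = 5.5e-05), from 578, 381 and 329.7 to 1596, 2589 and 2008. Beside Acta2 and Tagln, smooth muscle and pericyte markers summed to 45429 to 63584 normalized counts in controls, 29741 to 42499.6 after Yap siRNA, 51944 to 77298 after Wwtr1 siRNA, and 26429 to 45589 in the double knockdown, where 3 of 8 were higher and 2 lower, and their part in these results was not tested. Of 11 BMP response genes, 4 changed in the double knockdown, 2 higher and 2 lower, a share near that of all genes (32.8%). Hey1, a transcriptional repressor of the Notch and BMP pathways, rose by 1.91 ± 0.25 (adjusted p = 1.7e-04) and Dlx5 by 1.32 ± 0.47 (adjusted p = 0.0477). Gata3 fell by 1.96 ± 0.21 (adjusted p = 6.2e-05), from 501, 428 and 585 to 107, 155 and 126. Dlx5 was low, at no more than 16.5 normalized counts in controls, against 46.7, 25.9 and 31.6 in the double knockdown. It was at 30.7, 18.2 and 52.4 after Yap siRNA and at 32.3, 33.7 and 61.0 after Wwtr1 siRNA. Every siRNA library thus lay above every control for Dlx5, not only those of the double knockdown.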

How the data were processed

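RNA from 12 cultures was sequenced, 1 library each. The authors trimmed reads (Trim Galore 0.6.5 per the labels), aligned them to build rn6 with HISAT2, assembled transcripts with StringTie and normalized with DESeq2. The deposited signal values are counts divided by a size factor per library, under gene symbols. Each was tested as a multiple of 1 step per library (100% of 147252 values, within 0.1 read), which gave totals of 33.9 to 41.1 M reads per sample. These totals exceed the depth per sample that the study's methods state. Whether a unit is a read or a mate, and whether counting used strand, was not given in the sources used here. Normalized counts were not divided by transcript length, so levels are not compared between genes. Deposited fold changes and p-values of the authors' own comparisons were not used.

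Groups and replicate numbers came from sample titles. limma 3.58.1 (R 4.3.3) was fitted on log2(value + 1) with all 12 libraries and a mean-variance trend, for 11871 genes with a mean of at least 10. Adjusted p-values are two-sided Benjamini-Hochberg values over those genes, with a threshold of 0.05. The pseudocount understates changes of low genes. Over all genes tested, deviations of same-numbered libraries from group means correlated at 0.104 to 0.276 among the negative, Yap and Wwtr1 groups (9 pairs), so these were taken as paired from the data, as the labels do not say what a number marks. With the double knockdown they correlated at -0.127 to 0.180, and that group was not paired. Values in every library are given for genes called in some comparison that average 100 normalized counts or more and whose libraries do not overlap in one, and for set ligands, receptors, Smads and Id genes. Of the further pathway genes, those called with an absolute log2 fold change over 1 are named, except for an item that is not reported here. Dcn, Tgfbi, Gata3, Gdf10, Dlx5, Itgb6, Cd68 and Csf1r values, and the Inhba, Smad6, Smad9 and Chrdl1 values, which lie outside that rule, were added after seeing them. The members and lists were chosen with earlier results of these data known. The fits were tested on simulated data. Alternatives were other pseudocounts, filters and scaling, count models on the recovered reads (DESeq2 1.42.0, edgeR 4.0.16), a replicate block, no trend, the compared groups alone, and leaving out each library.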

Additional observations from a re-analysis of the deposited data

Results flagged for a closer look

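The interaction term, which compares the double knockdown with the added single effects, passed for 6 of 125 tested genes of the pathway and response lists, against 1.03% of all genes (limma, all 12 libraries). For Bmp4 it was -1.02 ± 0.20 (SE, adjusted p = 0.0401), for Bmp6 -0.94 ± 0.16 (adjusted p = 0.0196) and for Gdf6 -1.40 ± 0.29 (adjusted p = 0.0462), each from small single effects and a large fall in the double knockdown. The serine protease gene Htra1 had -0.69 ± 0.14 (adjusted p = 0.0401), since it rose after Yap siRNA (0.56), after Wwtr1 siRNA (0.61) and in the double knockdown (0.48) by similar amounts. Tgfbi had 1.83 ± 0.34 (adjusted p = 0.0311). Hey1 had 3.16 ± 0.35 (adjusted p = 0.00518), at 43.4 to 64.6 normalized counts in controls, 24.6, 33.2 and 25.1 after Yap siRNA, 47.0, 36.7 and 38.6 after Wwtr1 siRNA, against 212, 198 and 183 in the double knockdown, so that its libraries after Yap siRNA lay below and those of the double knockdown above all controls.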

How the results depend on the processing

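Shares of all genes called in the same fit, which moved with the counts, are in parentheses. No call changed direction under any alternative. The count for the double knockdown against negative siRNA stayed within 24 to 33 of 48 when any 1 library was left out (23.1% to 34.2% of all genes) and within 1.5 times its value under all other alternatives. Counts for Yap siRNA were 7 with DESeq2 (8.54%), 18 with the replicate block on 9 libraries (16.0%), 7 on those libraries without a block (5.69%, added after seeing the data), 0 without the trend (2.48%; 15 at an unadjusted p under 0.05, and 3 with edgeR) and 0 to 7 when 1 library was left out (0.935% to 6.44%), with 0 without negative replicate 3 or Yap replicate 1 (12 unadjusted in each). Counts for Wwtr1 siRNA were 16 with that block (21.3%), 3 without the trend (7.01%) and 1 to 7 when 1 library was left out (4.62% to 11.95%, with 1 without negative replicate 3). Against Yap siRNA the double knockdown count was 23 with DESeq2 (19.2%) and 10 to 18 with 1 library left out (6.39% to 15.8%), and against Wwtr1 siRNA 12 to 21 (10.8% to 19.7%, with 12 without Wwtr1 replicate 3). Between single knockdowns it was 10 with DESeq2 (13.8%), 19 with the block (22.6%) and 1 to 9 with 1 library left out (3.66% to 11.9%, with 1 without Yap replicate 2 or Wwtr1 replicate 3). For the interaction it was 5 with DESeq2 (4.21%), 0 without the trend (0.505%; 14 unadjusted) and 0 to 2 with 1 library left out (0.261% to 1.35%), with 0 without negative replicate 1 or Wwtr1 replicate 1 or 2 (12 to 15 unadjusted). The causes were not tested. A replicate block over all 12 libraries, where numbers of the double knockdown did not pair, gave 6 calls for Yap siRNA (7.36%), 6 for Wwtr1 siRNA (11.1%), 30 for the double knockdown (35.4%), 18 and 23 for the double knockdown against Yap and Wwtr1 siRNA (17.9% and 23.3%), 6 between single knockdowns (10.6%) and 4 for the interaction (1.95%). It lost Smad6 in the double knockdown against negative siRNA and Ltbp2 in the double knockdown against Wwtr1 siRNA. Ltbp3 and Fstl1 were lost between single knockdowns.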
